A study of Mus musculus with 4 samples.

Results

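The genes described here are 10 members of the Notch pathway, the receptors Notch1, Notch2 and Notch3, the ligands Dll1, Dll3 and Jag1, the DNA-binding partner Rbpj and the targets Hes1, Hes5 and Hey1. They were chosen by name out of 45706 features of the count files, and all 10 were found. Notch signalling runs between touching cells. A ligand on one cell opens a receptor on its neighbour to proteases, the cut inner part of the receptor enters the nucleus, joins RBPJ on DNA and switches on the Hes and Hey repressors, which hold back proneural genes and the Delta ligands. In the adult dentate gyrus the pathway is known for keeping neural stem cells from leaving the stem cell state.

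The counts came from single nuclei of the left dentate gyrus of young adult mice with a tamoxifen-inducible Cre (CreERT2) and the reporter CAGfloxStopSun1sfGFP, on a C57BL/6J background, male and female. Tamoxifen switches on the nuclear envelope tag Sun1-sfGFP in cells that express the Cre, above all radial glia-like cells (RGL), and in their progeny, and tagged nuclei were sorted 1, 2, 4 and 8 weeks later (libraries w1, w2, w4 and w8). All 4 libraries share this genotype and the treatment, differ in the time since it, and are each made from 1 pool of 4 mice, so weeks were compared as values with no test. The tag marks only cells in which the Cre was expressed at tamoxifen, and their progeny. From w4 the authors also took out a set of nuclei that grouped apart and might come from a single animal, so the w4 nuclei kept may stand for fewer mice. After the deposited filter 14367 nuclei remained, 2867 to 4243 a library with 13227971 to 28595331 unique molecular identifiers (UMIs). The same barcode occurred in more than 1 library for 22 barcodes, 3 of them with the same cluster.

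The deposited clusters were astrocytes (Astro, 67 nuclei), RGL (1387), neural progenitor cells (NPC, 211), neuroblasts (NB1, 2578, and NB2, 726), immature granule cells (GCimm1, 2442, and GCimm2, 979), young granule cells (GCyoung, 2176), mature granule cells (GCmat1, 3356, and GCmat2, 209), oligodendrocyte precursor cells (OPC, 131), oligodendrocytes (Oligo, 45) and a cluster labelled pericytes (Peri, 60). Of the marker genes listed for a cluster, 5 of 6 were highest in Astro, 7 of 7 in NPC, 5 of 5 in OPC and 5 of 5 in Oligo. In RGL Hopx and Thrsp were highest, while the other listed genes, Sox5, Lpar1 and Gfap, were higher in OPC, Peri and Astro. In Peri the pericyte genes Rgs5 and Higd1b had 0 UMIs and the other 2 listed, Pdgfrb (101 CPM) and Kcnj8 (3.16 CPM), were highest, while 5 of 5 leptomeningeal genes were highest there and summed to 5550 CPM, so Peri is used below as the label of the cluster only. NPC came almost wholly from w1 (112 nuclei) and w2 (75), with 22 from w4 and 2 from w8, and Astro had 21 to 24 nuclei in each of w1, w2 and w4 and 0 in w8. A level is given as CPM, the UMIs of the gene per 1000000 UMIs of the cluster, with an exact 95% Poisson interval that covers counting error only. Fewer transcripts per nucleus and fewer transcribing nuclei cannot be told apart in such a level.

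The promoter of Hes5 is shown because Hes5 was the target with the most UMIs in RGL and because it holds the letters that RBPJ binds. The RefSeq sequence of the 250 bases before its start lies at chr4:154960673-154960922 on the plus strand of GRCm38.p6. The capitals mark GTGGGAA on either strand, which reads TTCCCAC on the minus strand.

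Hes5: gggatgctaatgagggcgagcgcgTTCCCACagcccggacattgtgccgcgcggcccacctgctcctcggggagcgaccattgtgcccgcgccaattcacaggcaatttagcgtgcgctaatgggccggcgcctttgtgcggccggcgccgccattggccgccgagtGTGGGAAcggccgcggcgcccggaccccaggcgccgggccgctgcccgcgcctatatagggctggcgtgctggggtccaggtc

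The 2 matches begin 226 and 83 bases before the start and point in opposite directions. At least 1 GTGGGAA stood in 5.42% of the 32851 promoters of the same length. Of the other members with a promoter in the table (Notch1, Notch2, Notch3, Dll1, Dll3, Jag1 and Rbpj) none held it. The shorter TGGGAA, part of the same motif and present in 21.6% of promoters, was also found in the promoter of Rbpj, which is printed from chr5:53590096-53590345 (plus strand) with TGGGAA or its reverse in capitals.

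Rbpj: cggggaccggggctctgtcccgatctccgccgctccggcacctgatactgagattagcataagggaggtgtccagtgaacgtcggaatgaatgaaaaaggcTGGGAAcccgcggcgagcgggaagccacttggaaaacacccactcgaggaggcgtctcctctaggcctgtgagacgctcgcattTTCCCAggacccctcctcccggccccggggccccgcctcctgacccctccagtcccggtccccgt

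These matches began 149 and 65 bases before the start. CACNAG, the letters of the N box to which Hes repressors bind, stood in 36.7% of promoters, with 1 match each in Notch1 and Notch2 and 2 in Notch3. A match of letters is not evidence that a factor binds there.

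Notch1 and Notch2 were higher in Astro and RGL than in the neuronal clusters, and had their largest decreases along the lineage at different steps. Notch2, known for holding adult stem cells quiescent, stood at 286 CPM (232 to 350) in Astro, 1010.2 (985 to 1036) in RGL, 103 (83.2 to 126) in NPC and 22.2 (19.5 to 25.2) in NB1. In Peri Notch2 was at 477 CPM (404 to 559), above Astro and below RGL. Its level in RGL of w1, w2, w4 and w8 was 1028, 984, 1089.6 and 711 CPM. In NPC it was 118 CPM in w1, 86.3 in w2 and 91.7 in w4, so the highest NPC library lay far below the lowest RGL library. Later in the lineage Notch2 stood at 24.5 CPM in GCimm1, 39.5 in GCyoung and 44.1 (41.7 to 46.5) in GCmat1, and in OPC at 4.44 (0.916 to 12.98). Within a library, Notch2 was lower in GCmat1 than in GCyoung in 2 of 2 libraries. That step did not pass the test described below (adjusted p 0.933 with edgeR). At least 1 Notch2 UMI was seen in 92.5% of RGL nuclei and in 28.9% of GCmat1 nuclei. After thinning of each nucleus to 2000 UMIs, which removes the difference in depth and leaves out 141 shallower nuclei, these shares were 79.6% and 8.43%.

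Notch1, a receptor known to be needed for the upkeep of dividing progenitors, had nearly the same level in RGL and NPC. It stood at 104 CPM (72.7 to 145) in Astro, 148 (139 to 158) in RGL and 149 (125 to 176) in NPC, and then at 12.02 (10.1 to 14.3) in NB1 and 2.34 (1.59 to 3.33) in GCimm1. NPC held 166 CPM in w1, 114 in w2 and 210 in w4, which overlaps the RGL values of 137, 156, 171 and 82.9. Its intervals in NPC, RGL and Astro overlapped from neighbour to neighbour, as did those of most later clusters. Per kilobase of gene span, Notch2 lay above Notch1 in RGL (7.38 against 2.52 CPM per kb) and below it in NPC (0.752 against 2.53). Intronic UMIs grow with span while 3' end UMIs do not, so these levels per length are approximate. Notch3 was near the limit of detection, with 35 UMIs in RGL (5.74 CPM, 4.00 to 7.98), 4 in Astro, 2 in NPC and 0 in OPC and Oligo.

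**Figure D1:**
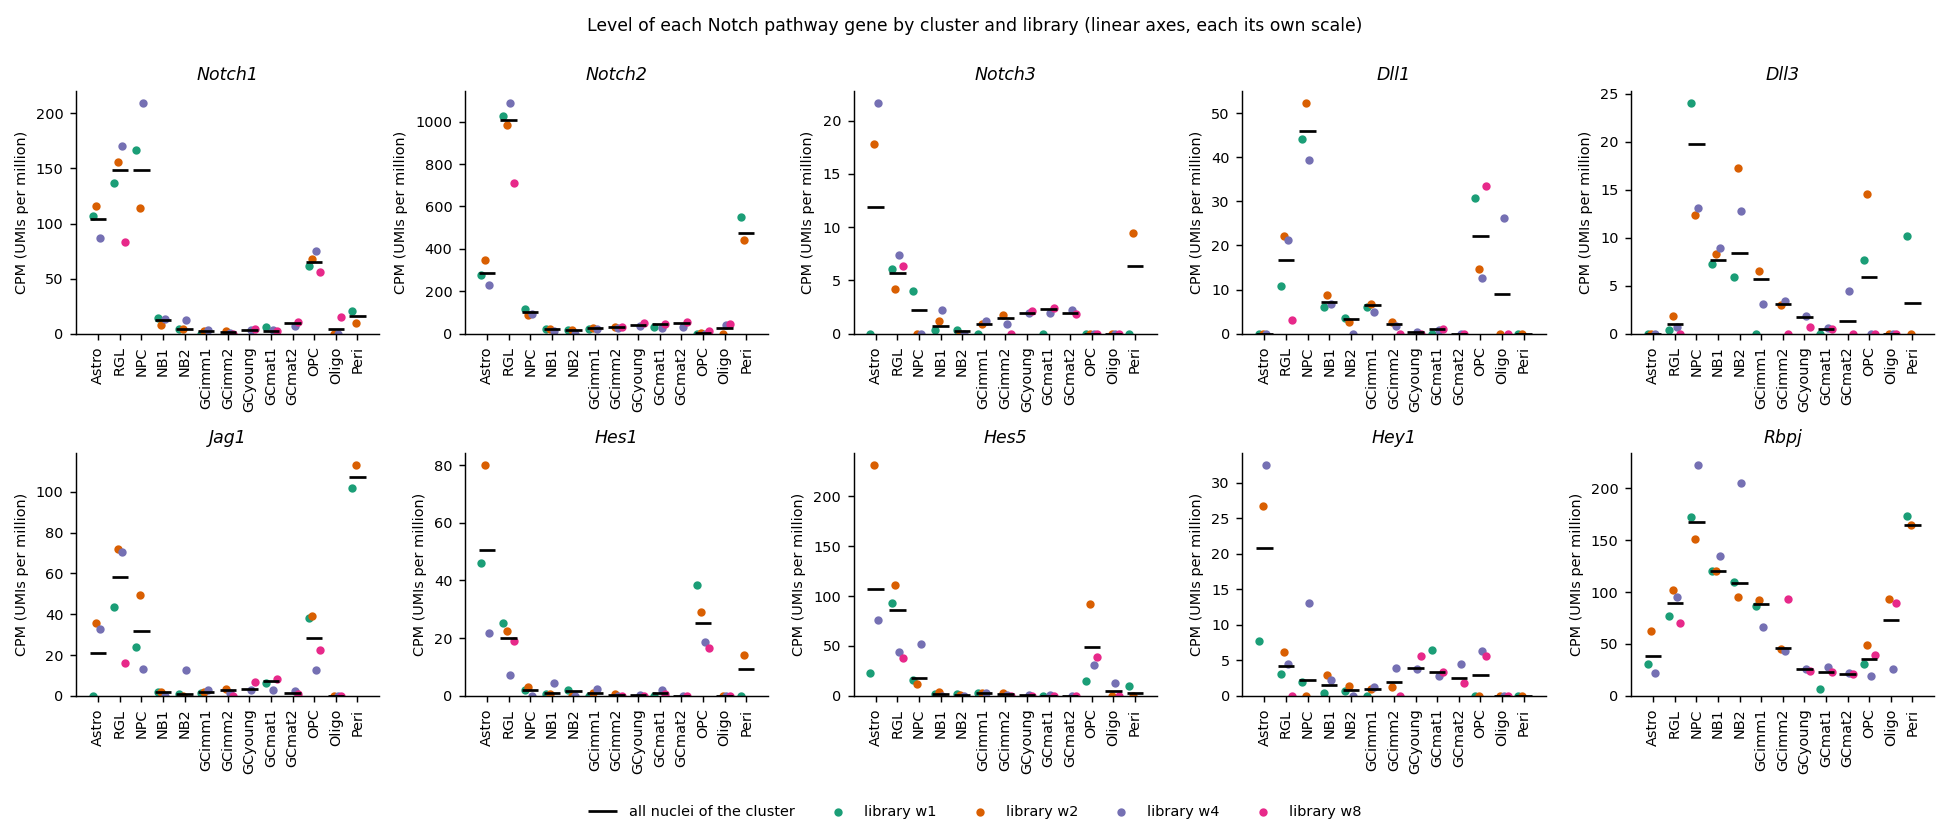
Level of each gene (y axis, CPM, linear from 0 and scaled separately) in the 13 clusters (x axis), with a point for each library of at least 10 nuclei and a bar for all nuclei of the cluster. Notch2 peaks in RGL at 1010.2 CPM, Dll1 and Dll3 peak in NPC at 46.0 and 19.7 CPM, and Hes1 and Hey1 have their highest pooled levels in Astro.

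The ligands followed 3 different courses. Dll1, the Delta ligand that signals from committed cells to their neighbours, had 0 UMIs in Astro (interval up to 11.0 CPM), 16.7 CPM (13.6 to 20.3) in RGL, 46.0 (33.1 to 62.2) in NPC and 7.16 (5.66 to 8.93) in NB1. In NPC its level was 44.1 CPM in w1, 52.4 in w2 and 39.3 in w4, against 10.9, 22.1, 21.3 and 3.19 in RGL of w1, w2, w4 and w8. The library values of the 2 clusters did not overlap. The NPC level of w4 rests on 3 UMIs, and its interval (8.11 to 115 CPM) holds the RGL values of w1, w2 and w4. In OPC Dll1 stood at 22.2 CPM (12.4 to 36.6), an interval that overlaps that of RGL, and in GCyoung at 0.346.

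Dll3, a Delta-like protein that does not activate receptors on other cells, was highest in NPC and neuroblasts. It rested on 6 UMIs in RGL (0.984 CPM, 0.361 to 2.14) and 18 in NPC (19.7 CPM, 11.7 to 31.1), with 24.1, 12.3 and 13.1 CPM in NPC of w1, w2 and w4 against at most 1.88 in any RGL library. The NPC levels of w2 and w4 rest on 4 UMIs and 1 UMI, and the interval of w4 (0.332 to 73.0 CPM) holds the RGL values. Later levels were 7.71 CPM in NB1, 8.37 in NB2, 5.74 in GCimm1 and 0.480 in GCmat1. At least 1 UMI was found in 7.11% of NPC nuclei and 0.42% of GCmat1 nuclei (3.88% and 0.09% after thinning).

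Jag1, the Serrate-type ligand, was highest in Peri (107 CPM, 74.4 to 150) and next in RGL (58.0, 52.1 to 64.4). NPC held 31.8 CPM (21.3 to 45.6), with 24.0, 49.3 and 13.1 in w1, w2 and w4, while RGL spanned 15.9 (w8) to 71.9 (w2), so the clusters overlapped over all libraries. NB1 was at 1.65 CPM. In granule cells it was at 3.12 CPM (2.34 to 4.07) in GCyoung, 7.503 (6.54 to 8.57) in GCmat1 and 1.28 (0.155 to 4.63) in GCmat2. The gap between GCyoung and GCmat1 was small within a week, at 2.79 against 2.77 CPM in w4 and 6.97 against 8.21 in w8, and it did not pass the test described below (adjusted p 0.467 with edgeR).

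The targets Hes1 and Hey1 had their highest pooled levels in Astro, and Hes5 was high in Astro and RGL. Hes1 and Hes5 were lower in NPC than in RGL in the pooled counts, while the NPC interval of Hey1 held its RGL level. Hes5 stood at 107 CPM (75.2 to 149) in Astro, 85.6 (78.4 to 93.2) in RGL, 17.5 (10.01 to 28.4) in NPC, 2.11 (1.34 to 3.17) in NB1 and 0.240 (0.0964 to 0.494) in GCmat1. In Astro it was 23.0 CPM in w1, 231 in w2 and 75.9 in w4, a spread that holds all 4 RGL libraries. Without w2, which gave 26 of the 36 Astro UMIs, Hes5 was at 44.9 CPM (21.5 to 82.5) in Astro and 72.0 (63.9 to 80.9) in RGL, so the order of the 2 pooled levels turned. Hes1 stood at 50.7 CPM (29.5 to 81.2) in Astro and 20.0 (16.6 to 23.9) in RGL, and rested on 2 UMIs in NPC (2.19 CPM, 0.265 to 7.91). Hey1 had 7 UMIs in Astro (20.9 CPM, 8.40 to 43.0), 26 in RGL (4.26 CPM, 2.78 to 6.25) and 2 in NPC (2.19 CPM, 0.265 to 7.91). From RGL to NPC it did not pass the test described below (adjusted p 0.538 with edgeR). It stood at 3.87 CPM in GCyoung and 3.36 in GCmat1. OPC held 48.9 CPM of Hes5 (33.6 to 68.6) and 25.2 of Hes1 (14.7 to 40.3), and 2 UMIs of Hey1.

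Rbpj, which both represses targets without a receptor and activates them with one, did not follow either group. It stood at 38.8 CPM (20.7 to 66.3) in Astro, 89.8 (82.5 to 97.7) in RGL and 168 (142 to 196) in NPC. In Peri it was at 164 CPM (123 to 215), an interval that overlaps that of NPC. In neurons it stood at 121 CPM (114 to 127) in NB1, 88.5 in GCimm1, 45.7 in GCimm2 and 23.4 (21.7 to 25.3) in GCmat1. Every NPC library (172, 151 and 223 CPM) lay above every RGL library (70.1 to 102). NB1 libraries, at 120.2, 119.9 and 134 CPM, also lay above every RGL library, unlike the receptors and targets in NB1.

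By role, and after thinning to 2000 UMIs, at least 1 receptor UMI was found in 50.7% of Astro, 84.8% of RGL, 32.5% of NPC and 6.84% of NB1 nuclei. Ligand UMIs were found in 13.4% of RGL (95% exact binomial interval 11.7 to 15.3), 16.5% of NPC (11.7 to 22.3) and 3.06% of NB1 nuclei. Target UMIs were found in 28.4% of Astro (18.0 to 40.7), 15.9% of RGL (14.0 to 17.9), 4.37% of NPC (2.02 to 8.13) and 0.925% of NB1 nuclei (0.587 to 1.39). Mature neurons of GCmat1 gave 9.48%, 2.03% and 0.894% for the 3 roles. No background was taken off these shares, and how much of the small ones is stray RNA of other cells was not tested.

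Changes between neighbouring clusters were tested with edgeR's quasi-likelihood test on UMIs summed per library and cluster, with library as a term. Calls needed a 1.5-fold change or more together with an adjusted p (Benjamini-Hochberg, over all 13513 genes tested) of no more than 0.05. Clusters were drawn from the same counts, so these p-values describe how clusters differ, against the scatter of the sums left after the cluster and library terms. They are not independent evidence that the clusters exist. Notch2 is also among the marker genes that the study shows for RGL, so its height there may be in part fixed by the naming of the cluster. Fitted changes are relative to TMM-scaled totals, and they can differ from ratios of CPM. From RGL to NPC, for example, the median over all tested genes was 0.25 (log2) in ratios of CPM and -0.05 in the fit.

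From Astro to RGL 2 members rose and 0 fell, against 4.77% of all genes that rose and 4.82% that fell. Notch2 was 1.76 ± 0.21 (SE, log2) higher in RGL (adjusted p 4.0e-09), in 3 of 3 libraries and in each alternative setting, beside a median of 0.27 for all genes. Dll1 passed as well (adjusted p 0.0304), but it had 0 UMIs in Astro, so the data give only a bound. With 3 UMIs over all Astro nuclei taken as the limit, Dll1 was at least 1.87-fold higher in RGL. The counting interval of the ratio of CPM begins lower, at 1.49-fold. The call of Dll1 was lost without w1, w2 or w4 (adjusted p 0.116, 0.214 and 0.141), with thinned nuclei (0.178) and with DESeq2 (0.0948). Without w8, which holds no Astro, 4 members were called, with Jag1 and Rbpj added. Hes1, Hes5 and Hey1 did not pass in the main edgeR fit, where Hey1 (adjusted p 0.0512) and Rbpj (0.0526) lay just above the threshold. With DESeq2 the number of members called did not fall although Dll1 was lost, so DESeq2 also called a member that edgeR did not.

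From RGL to NPC 3 members rose and 4 fell, while 13.7% of all genes rose and 15.9% fell. Notch2 fell by 3.58 (log2, SE 0.22, adjusted p 3.0e-19), Hes5 fell by 2.63 (SE 0.40, adjusted p 5.1e-07) and Hes1 fell by 3.53 (SE 0.84, adjusted p 7.5e-04). As Hes1 rests on 2 UMIs in NPC, its ratio of CPM was 9.13-fold lower with a counting interval of 2.48 to 76.3. Notch2 and Hes1 were lower in 3 of 3 libraries, and Hes5 in 2 of 3, with w4 at 52.4 CPM in NPC (4 UMIs, 14.3 to 134) against 44.2 in RGL, inside that interval. Dll3 rose by 3.90 ± 0.72 (adjusted p 1.8e-05) and Dll1 by 1.19 ± 0.35 (adjusted p 0.0060), both in 3 of 3 libraries. In w4 the NPC counts behind these directions were 1 UMI of Dll3, 3 of Dll1, 1 of Jag1 and 0 of Hes1, too few to show a direction in that library. Jag1 fell by 1.07 (SE 0.39, adjusted p 0.0311) and Rbpj rose by 0.64 ± 0.20 (adjusted p 0.0107), each in 3 of 3 libraries.

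Several of these calls were lost without w1, the library with the most NPC, while the direction stayed. Notch2 and Hes5 kept their calls. The log2 change without w1 was 2.74 for Dll3 (adjusted p 0.0522), -3.21 for Hes1 (0.0623), -1.04 for Jag1 (0.166), 0.85 for Dll1 (0.235) and 0.45 for Rbpj (0.253). Without w2, Dll1 was at 0.0502 and Jag1 at 0.108, and without w4, Jag1 was at 0.0591. Jag1 was also lost with DESeq2 (adjusted p 0.241), and the log2 change of Rbpj was 0.57 without w8, just under the fold threshold, as it was without the filter on low counts (0.56) and with at least 20 nuclei a sum (0.55). NPC also carried UMIs of endothelial genes (Flt1 at 38.3 CPM, Cldn5 at 1.09, Pecam1 at 10.9 and Slco1a4 at 49.3). These genes summed to 99.6 CPM (12.3 to 172 by library), against 9.67 in RGL. Their part in the results was not tested.

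From NPC to NB1 0 members rose and 5 fell, against 14.7% and 14.6% of all genes. Jag1 fell by 3.98 (log2, SE 0.60, adjusted p 2.7e-07), Notch1 fell by 3.41 (SE 0.25, adjusted p 1.1e-16) and Hes5 fell by 2.85 (SE 0.65, adjusted p 4.7e-04). Dll1 fell by 2.43 (SE 0.37, adjusted p 4.3e-07) and Notch2 fell by 1.98 (SE 0.27, adjusted p 2.7e-08). All 5 were lower in 3 of 3 libraries and kept the call in each of the 10 alternative settings. In w4 the NPC counts of Jag1 and Dll1 given above are too few to show a direction in that library, and Hes5 rests on 4 UMIs in NPC.

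From NB1 to GCimm1 (7.76% of all genes rose, 4.75% fell) only Notch1 passed, and fell by 2.11 (SE 0.33, adjusted p 2.0e-06), in 3 of 3 libraries and each alternative. From GCimm1 to GCimm2 (6.52% rose, 2.91% fell) only 2 libraries held both clusters. Dll1 fell by 1.29 (SE 0.44, adjusted p 0.0487) and Rbpj fell by 0.66 (SE 0.18, adjusted p 0.0109), each in 2 of 2 libraries. Neither held without w2 (adjusted p 0.591 and 0.613) or without w4 (0.220 and 0.0809), and Dll1 did not hold without w1 (0.0821). From GCimm2 to GCyoung (9.27% rose, 9.62% fell) only 2 libraries held both clusters. Notch2 rose by 0.86 ± 0.24 (adjusted p 0.00701, 2 of 2 libraries). Dll1, with 17 UMIs in GCimm2 and 6 in GCyoung, fell by 2.08 (SE 0.70, adjusted p 0.0265, 1 of 2), and Rbpj fell by 0.60 (SE 0.22, adjusted p 0.0454, 2 of 2). None of these held without w2 (0.0535, 0.297 and 0.0893) or without w4 (0.206, 0.758 and 0.206), and Rbpj also missed without w1 (0.0511), without w8 (0.180), without the filter on low counts (0.0961), without the library term (0.0631) and, on its fold, with at least 20 nuclei a sum (log2 change -0.56). Notch2 missed with DESeq2 (0.0832) and Dll1 with thinned nuclei (0.329). From GCyoung to GCmat1, where 3.85% of all genes changed, edgeR called 0 of 10 members, with 1 at an unadjusted p under 0.05, and DESeq2 called 0. That member was Dll1, which was higher in GCmat1 by 2.05 (log2, SE 0.73, adjusted p 0.138 with edgeR), at 1.10 against 0.346 CPM, in 2 of 2 libraries.

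**Figure D2:**
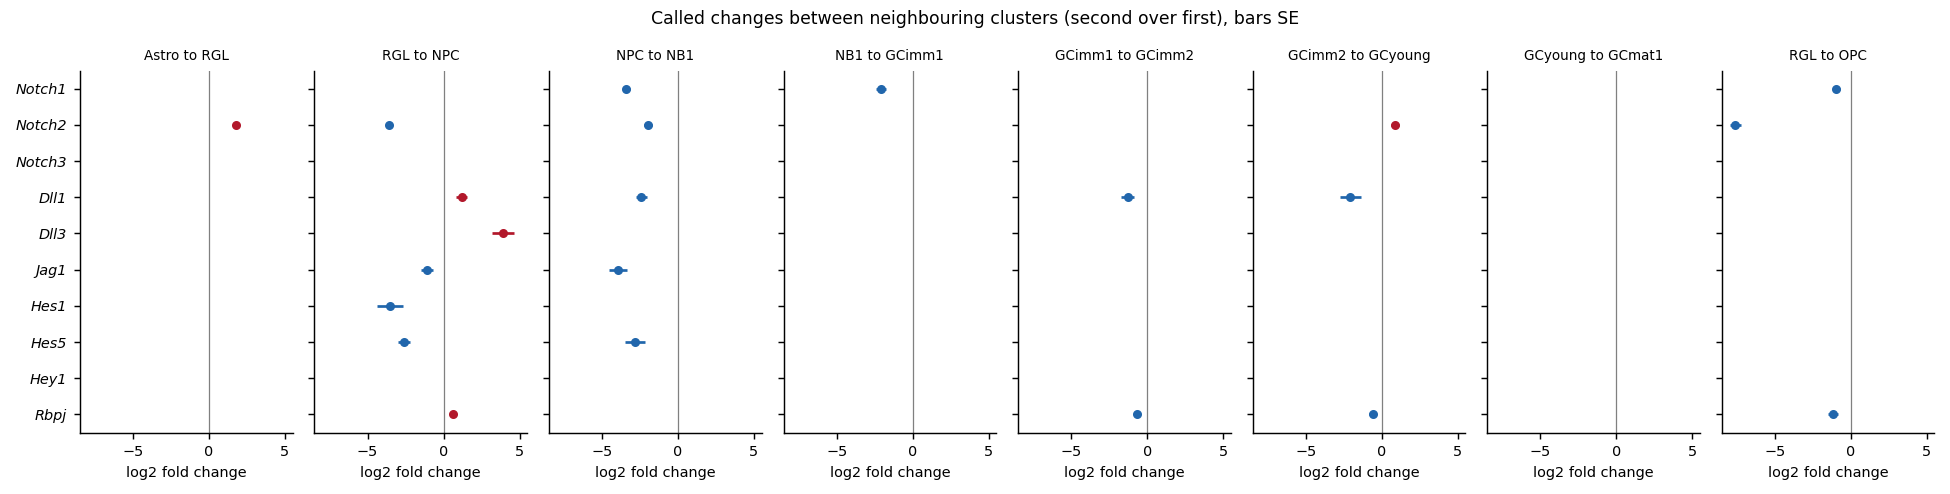
Fitted log2 fold change (x axis, second cluster over first) with its SE for each member called (rows) in the 8 comparisons (panels), leaving out Dll1 from Astro to RGL, which has 0 UMIs in Astro. The 7 changes from RGL to NPC go both ways, and the 5 from NPC to NB1 are all decreases. Notch2 from RGL to OPC rests on 3 UMIs in OPC.

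OPC held little Notch2 next to RGL, and both held Notch1. From RGL to OPC 0 members rose and 3 fell, out of 8 tested in a fit of all 13 clusters with 11548 genes (Notch3 and Dll3 were too low), against 14.5% and 15.2% of those genes. Notch2 had 3 UMIs in OPC (4.44 CPM, 0.916 to 12.98), a ratio of CPM 227-fold lower with a counting interval of 77.8 to 1103. Notch1 fell by 0.95 (log2, SE 0.25, adjusted p 0.00187) to 65.2 CPM, and Rbpj fell by 1.18 (SE 0.32, adjusted p 0.00226) to 35.5 CPM. Each was lower in 4 of 4 libraries, though Notch1 missed with DESeq2 (adjusted p 0.0606). Hes1, Hes5, Hey1 and Dll1, present in both clusters at the levels given above, did not pass. Jag1 did not pass either (adjusted p 0.116 with edgeR), though its pooled level in OPC, 28.1 CPM (16.9 to 43.9), lay below that in RGL. A change that did not pass does not show that the levels are equal.

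Pseudo-time, the deposited position of each nucleus on the path from RGL to GCmat1, placed these changes more finely. The path was computed from the same expression values, and bins hold equal numbers of nuclei, so the courses below are descriptions without a test. When the RGL nuclei were divided into 3 equal parts by pseudo-time (early, middle and late), Dll1 stood at 6.18 CPM (3.46 to 10.2), 17.5 (12.1 to 24.4) and 30.6 (22.9 to 40.1). Notch1 was likewise higher toward the end, at 106 (93.8 to 120), 154 (137 to 172) and 201 (180 to 223). Notch2 stayed between 984 and 1061 CPM. Hes1 was at 23.1 and 25.7 CPM and then at 9.25 (5.29 to 15.02) in late RGL, and Hey1 had 9, 16 and 1 UMIs, whereas Hes5 held 75.9, 99.8 and 83.2 CPM.

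The early part of RGL came mostly from w1 (270 of 463 nuclei), so the parts were also read within each week. Dll1 was higher in late than in early RGL in w1 (21.0 against 6.76 CPM), w2 (35.9 against 10.4) and w4 (28.9 against 3.11), and so was Notch1 (197 against 114, 192 against 98.5 and 224 against 109). The early Dll1 values rest on 10, 4 and 1 UMIs, and its early and late intervals overlap in each of these weeks. Those of Notch1 do not overlap. Hes1 was lowest in the late part in w1 (13.1 CPM), w2 (9.78) and w4 (4.82), each with wide intervals. Hes5 was also lowest in the late part in w1 (65.7 CPM after 89.9 and 128), but not in w2 (98.9 after 98.5 and 130) or w4 (62.6 after 15.6 and 46.6). Jag1 was at 35.8 CPM (26.8 to 46.8) in early and 65.7 (42.5 to 96.9) in late RGL of w1. In w4 it was at 43.6 (23.8 to 73.1) and 72.3 (48.8 to 103), but in w2 at 77.8 (52.5 to 111) and 64.1 (48.8 to 82.7). The early and late intervals of Jag1 overlap in each of these weeks.

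**Figure D3:**
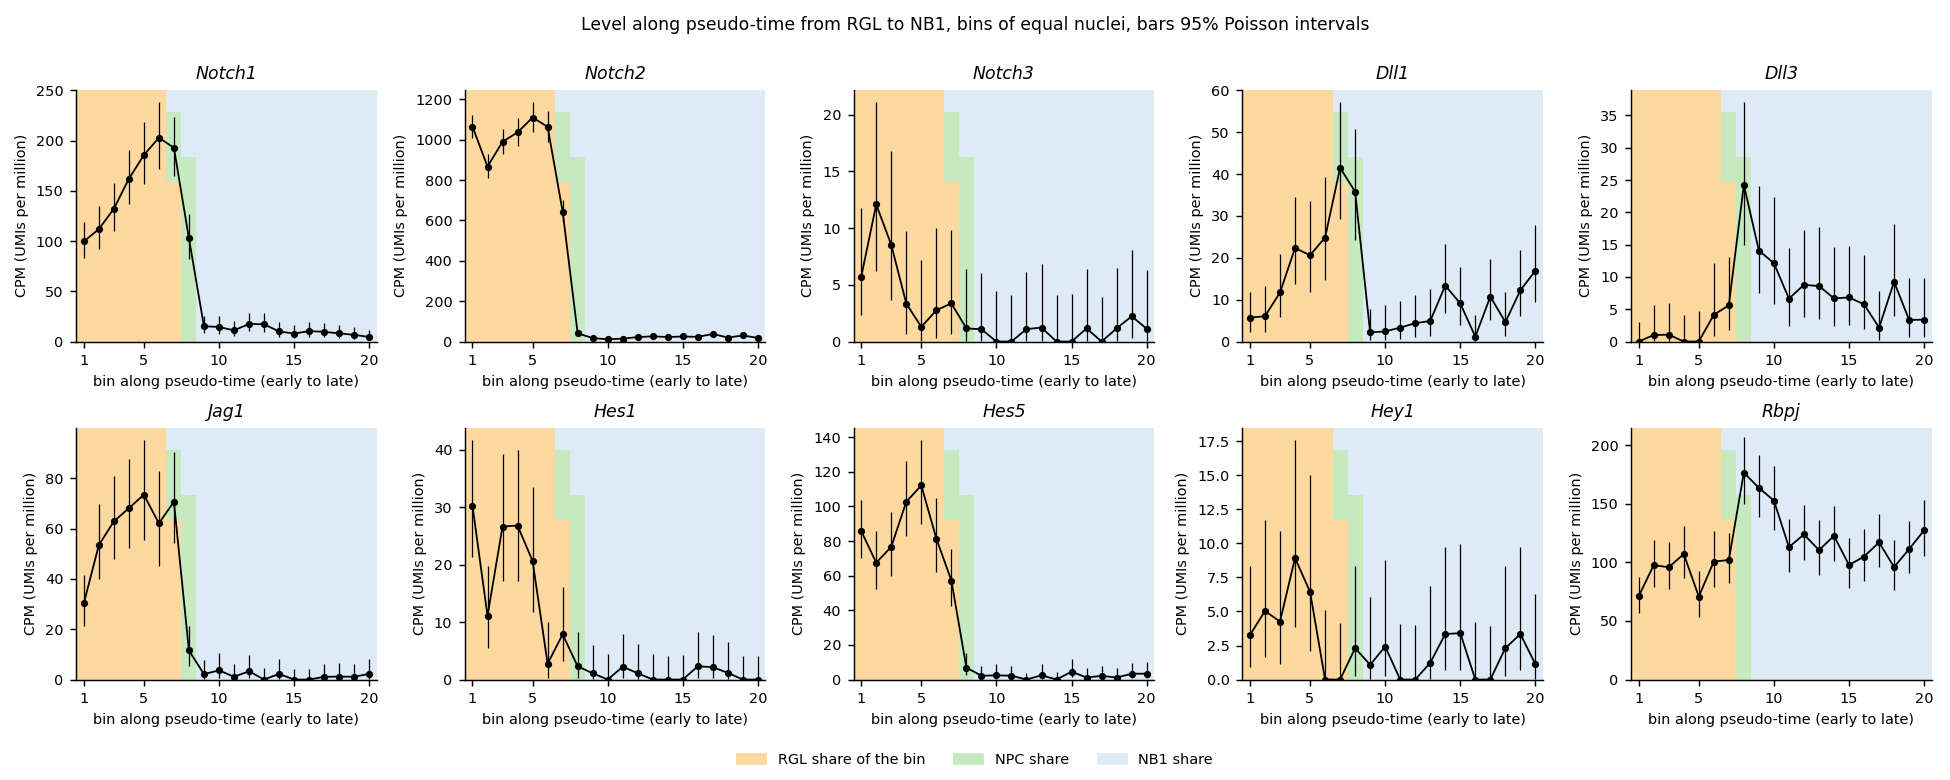
Level (y axis, CPM, linear) of each member in 20 bins of equal numbers of nuclei along pseudo-time from RGL to NB1 (x axis), with 95% Poisson intervals and the share of each cluster in a bin shaded. Notch1 and Dll1 are higher in the last RGL bins than in the first, Hes5, Jag1 and Notch2 are low after the bins that hold NPC, and Dll3 and Rbpj are highest in the bin that is mostly NPC.

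Within NPC, divided in the same way, the members did not share a course. In early NPC Jag1 stood at 79.8 CPM (51.7 to 118), Hes5 at 44.7 (24.4 to 75.0) and Notch2 at 217 (169 to 275). In middle NPC they were at 13.03 (3.55 to 33.4), 3.26 (0.0825 to 18.2) and 45.6 (24.9 to 76.5), while Dll1 kept 61.9 CPM (37.3 to 96.7) after 63.9 in the early part. In late NPC Dll1 was at 10.2 CPM (2.11 to 29.9) and Jag1 had 0 UMIs. Notch1 stood at 214, 153 and 75.0 CPM. Dll3 stood at 12.8, 29.3 and 17.04 CPM with overlapping intervals, and Rbpj held 150, 176 and 177. The parts hold 70 or 71 nuclei each, and some of these values rest on 5 or fewer UMIs (1 for Hes5 in middle and late NPC, 4 for Jag1 in middle NPC, 3 for Dll1 in late NPC, and 4 and 5 for Dll3 in early and late NPC). Within w1 and w2, the weeks with enough nuclei, Notch2 was higher in early than in late NPC (277 against 33.1 and 157 against 51.5 CPM), as was Dll1 (78.3 against 6.62 and 59.0 against 17.2). The late Dll1 values rest on 1 UMI in w1 and 2 UMIs in w2. In w2 the early and late intervals overlap for both genes. The order of Notch1 held in w1 (283, 137 and 72.8 CPM) but not in w2 (98.3, 169 and 77.3).

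Inside NB1 Dll1 was again higher toward the end, at 3.29 CPM (1.70 to 5.74), 7.34 (4.80 to 10.8) and 10.8 (7.71 to 14.7) in its early, middle and late part. The same order was seen in w1 (3.00, 6.60 and 9.41) and in w2 (4.39, 9.50 and 11.3). The early Dll1 values of these weeks rest on 7 and 5 UMIs, and the early and late intervals overlap in each week. Dll3 had the opposite order in NB1, at 11.8 (8.53 to 15.9), 6.78 and 4.59 (2.67 to 7.34) CPM, as did Notch1 at 16.2 (12.3 to 20.9), 12.4 and 7.55 (5.02 to 10.9). Both orders held in w1 but not in w2, where Dll3 was at 13.2, 6.33 and 6.53 CPM and Notch1 at 14.05, 5.54 and 6.53.

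Between weeks, RGL of w4 and w8 carried less Hes5 than RGL of w1 and w2. It stood at 93.1 CPM (81.0 to 106) in w1, at 111 (97.2 to 126) in w2, at 44.2 (33.7 to 56.9) in w4 and at 38.2 (19.8 to 66.8) in w8. The lower level of w4 was seen in early RGL (15.6 CPM against 89.9 in w1 and 98.5 in w2) and in middle RGL (46.6 against 128 and 130), and in late RGL it was 62.6 against 65.7 and 98.9 (79.6 to 121). RGL of w8, 83 nuclei of which 59 fell in the early part, also had the lowest pooled Notch1 (82.9 CPM, 54.1 to 121), Jag1 (15.9, 5.17 to 37.2, on 5 UMIs) and Notch2 (711, 621 to 810), while Dll1 had 1 UMI (3.19 CPM, 0.0807 to 17.8), an interval that holds the level of w1. In the early part alone, Notch2 in w8 was at 687 CPM (586 to 800) against 928 to 1047 in the other weeks, but in the middle part it was at 923 (697 to 1199), within the 918 to 1114 of the other weeks. Jag1 in early RGL of w8 was at 16.8 CPM (4.57 to 42.9) against 35.8 to 77.8 and Notch1 at 67.0 (38.3 to 109) against 98.5 to 114. The interval of Notch1 overlaps those of all 3 other weeks and that of Jag1 those of w1 and w4, and Dll1 had 0 UMIs (interval up to 15.5 CPM). Each week is 1 pool, so week, pool and library cannot be told apart. Time points were processed in pairs by day, and which weeks shared a day is not given in the sources used here. What the set of nuclei taken out of w4 does to its levels was not tested.

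**Figure D4:**
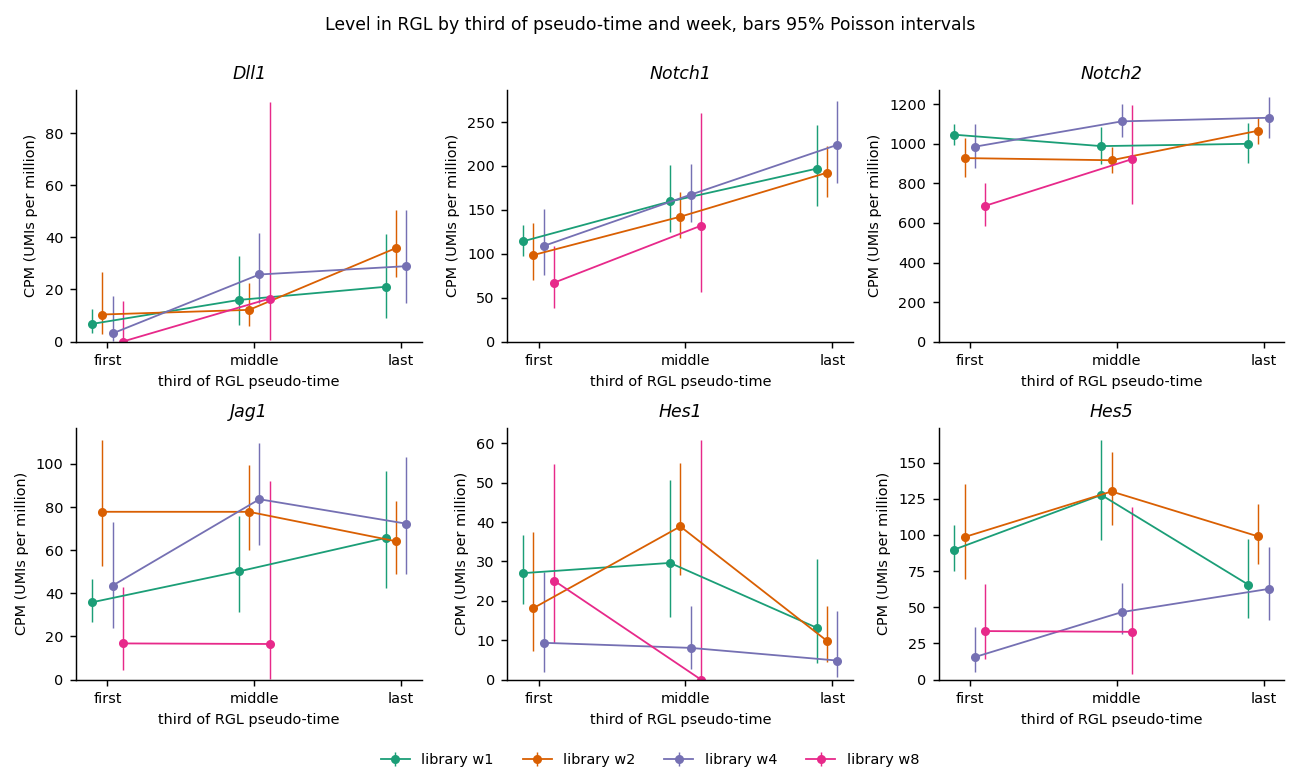
Level (y axis, CPM, linear) of 6 members in RGL divided by pseudo-time into 3 parts of equal numbers of nuclei (x axis), with a line for each library and 95% Poisson intervals, shown where a library has at least 10 nuclei. Dll1 and Notch1 are higher in the last than in the first part in w1, w2 and w4, with overlapping intervals for Dll1. Hes5 in w4 lies below w1 and w2 in the first 2 parts.

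A further 51 pathway genes were listed by role (other ligands, ligand endocytosis, fringe enzymes, receptor proteases, turnover, nuclear cofactors, other targets), and 45 were tested. From RGL to NPC 7 rose and 7 fell, beside 13.7% and 15.9% of all genes. From NPC to NB1 9 rose and 8 fell (14.7% and 14.6% of all genes). Counts were 2 up and 1 down from Astro to RGL (4.77% and 4.82%), 5 and 3 from NB1 to GCimm1 (7.76% and 4.75%), 6 and 1 from GCimm1 to GCimm2 (6.52% and 2.91%), and 5 and 4 from GCimm2 to GCyoung (9.27% and 9.62%). From GCyoung to GCmat1 1 fell (3.85% of all genes changed), and from RGL to OPC 4 rose and 5 fell of 40 tested (14.5% and 15.2%). The median log2 change of the list was 0.02 from RGL to NPC and 0.15 from NPC to NB1, beside -0.05 and 0.06 for all genes.

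The 4 called genes of the list with the largest change from RGL to NPC, among those with at least 50 UMIs in the 2 clusters, were decreases. Id4, an inhibitor of bHLH factors held in stem cells, went from 207 to 14.2 CPM and fell by 4.24 (log2, SE 0.35, adjusted p 7.6e-15). Lfng, a fringe enzyme that tunes receptors toward Delta ligands, went from 48.2 to 8.76 CPM and fell by 2.79 (SE 0.46). The ubiquitin ligase gene Dtx1 fell by 2.21 (SE 0.32), and its relative Dtx4 went from 23.4 CPM to 1 UMI, a ratio of CPM 21.4-fold lower with a counting interval of 3.78 to 852. From NPC to NB1 Dtx4 rose again, to 18.9 CPM. There Bend6, an antagonist of RBPJ in neurons, rose by 2.33 ± 0.41 (adjusted p 7.6e-06), from 8.76 to 37.9 CPM. The ligand gene Jag2 and Neurl1a, which acts in ligand endocytosis, had 3 UMIs each in NPC and reached 9.54 and 10.5 CPM in NB1, with CPM ratios of 2.91 (0.967 to 14.3) and 3.18 (1.06 to 15.7). Jag2 lost its call without w2 (adjusted p 0.128), and Neurl1a without w1 (0.132), without w2 (0.0735), with DESeq2 (0.0571) and with thinned nuclei (0.256). Among genes outside the naming rule, chosen after their values were seen, Mfng, another fringe enzyme, had 2 UMIs in RGL and 49.3 CPM in NPC (45 UMIs) and was called higher, opposite to Lfng. Dll4, a ligand also known from endothelial cells, was called higher on 2 UMIs in RGL and 9 in NPC.

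Astro and OPC differed from RGL in other genes of the list. From Astro to RGL Dner, a neuronal Notch ligand-like protein, fell by 2.97 (SE 0.59, adjusted p 1.8e-04), from 59.7 to 7.70 CPM, and the coactivator gene Maml3 rose by 1.99 ± 0.38 (adjusted p 8.9e-05). Numbl, a relative of the Notch inhibitor Numb, had 0 UMIs in Astro and 21.5 CPM in RGL, and lost its call without w1, w2 or w4 (adjusted p 0.0696, 0.0774 and 0.0577). From RGL to OPC Dner rose by 5.25 ± 0.29 (adjusted p 4.3e-22) to 271 CPM, Id4 fell by 4.91 (SE 0.46, adjusted p 2.2e-13) and Dtx1 fell by 3.02 (SE 0.47, adjusted p 3.7e-07). Lfng had 1 UMI in OPC, a CPM ratio 32.5-fold lower with a counting interval of 5.80 to 1290.

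Over the 13 clusters, the genes whose level (log2 of CPM plus 1) followed each member most closely among 11548 were as follows, as Pearson's r and without a test, since clusters share libraries and depth. Notch1 was followed by Myo10 (0.96), Nr2e1 (0.96), known as the stem cell factor Tlx, and 2810459M11Rik (0.94). Notch2 was followed by Itgb5 (0.92), Synpo2 (0.91) and Rnf25 (0.91), and Jag1 by Plscr4 (0.98), Vegfc (0.96) and Dock6 (0.96). Hes5 was followed by Cyp2j9, Gpr37l1 and Asrgl1 (0.98, 0.98 and 0.97) and Hes1 by Ptprt, Zbtb7c and Tshr (0.97 each). Rbpj was followed by Pcnp, Ppp2r2d and Rab11b (0.98, 0.98 and 0.97). Dll1 was followed by Brat1 (0.97), Gm20446 (0.92) and Zfp932 (0.92), and Hey1 by Wasf3 (0.96), Arhgef4 (0.93) and Colgalt2 (0.90). For Hes1, Hes5, Hey1, Dll1 and Jag1 the values in several clusters rest on fewer than 10 UMIs.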

How the data were processed

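The authors aligned 10x single-nucleus reads to GRCm38 with STARsolo (version 2.7.4a in the submitters' processing notes), left out multi-mapped reads and counted UMIs over exons and introns. They deposited raw counts for each of 4 libraries, which passed the pipeline's filter at 17046 barcodes, and a table of log2 expression after their filter for features, doublets and quality, the removal of a set of w4 nuclei as a possible outlier animal and that of small graph components, with library, cluster and pseudo-time. Barcodes fell from 5459 to 3831 in w4 through all of these steps. The counts and these labels were used here, for the 14367 nuclei of the table. The deposited log2 values were not used for levels. A second dataset was not analysed here, and the promoter that drives the Cre is not reported here.

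Counts were summed per library and cluster (at least 10 nuclei) and fitted with edgeR 4.0.16 (filterByExpr, TMM, quasi-likelihood test, cluster and library as terms), in 29 sums of trajectory clusters and Astro (16 residual degrees of freedom) or in 38 sums of all clusters (22). The library term pairs clusters of the same pool of animals. Pools hold several animals, so p-values measure the spread between sums, not between mice. In counts simulated with 200 changed genes a comparison, 134 were recovered from Astro to RGL and 167 from RGL to NPC. The changed genes were drawn from those above the median level, so these counts do not describe members with few UMIs. All other genes were given the same level in every sum, unlike in the real clusters, so recovery in the real data was not measured. Alternatives were RLE factors, DESeq2 1.42.0, no filter, no library term, at least 20 nuclei, nuclei thinned to 2000 UMIs and each library left out. The division of clusters into 3 parts by pseudo-time and the target levels without each library were added after the data had been seen.

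Intervals are exact (Poisson or Clopper-Pearson, 95%), and for a bound on a fold change 3 counts were taken as the limit where a count was 0. All 10 members are named, with fold changes for those called. Of the 51 further genes, up to 4 called ones with the largest change and at least 50 UMIs are named for 4 comparisons. The members and lists were chosen with earlier results of these data known. Gene spans are from GENCODE M21 and promoters from RefSeq (8 of 10 members matched). Of the members, Notch1, Notch3, Dll1, Hes5 and Rbpj overlap genes on the opposite strand and Notch1 and Notch2 hold short genes on their own strand, and how reads there were assigned is not given in the sources used here.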

Additional observations from a re-analysis of the deposited data

Results flagged for a closer look

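From Astro to RGL, the level of Hes5 went in opposite directions in 2 libraries, each beyond its counting interval. The ratio of CPM, RGL over Astro, was 4.05 in w1 and 0.479 in w2. Astro held 22 nuclei in w1 and 21 in w2, and the difference between these weeks was not tested.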

How the results depend on the processing

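No called change of a member reversed its direction in any of the alternatives. Of 23 called changes, 185 of 229 refits kept the call. The number of members called from NPC to NB1, from NB1 to GCimm1, from GCyoung to GCmat1 and from RGL to OPC stayed within 1.5 times the main count in each alternative. From Astro to RGL (2 called) it was 1 with thinned nuclei and 1 to 4 when a library was left out. From RGL to NPC (7 called) it was 2 to 6 when a library was left out. From GCimm1 to GCimm2 (2 called) it was 0 with DESeq2, 1 without the filter on low counts, 0 without the library term (no replicate block), 0 with thinned nuclei and 0 to 2 when a library was left out. From GCimm2 to GCyoung (3 called) it was 0 to 2 when a library was left out. The cause was not tested. Leaving out the library term ended 4 calls, those of Jag1 from RGL to NPC (adjusted p 0.0735), of Dll1 (0.0954) and Rbpj (0.0817) from GCimm1 to GCimm2, and of Rbpj from GCimm2 to GCyoung (0.0631). Of 130 pooled levels, 113 stayed inside their counting interval after thinning. With 10 bins, the bin of the highest level changed for Hes1 and Rbpj. In an alternative chosen after seeing the data, the level of Hes5 in Astro was 44.9 to 161 CPM when a library was left out. In NPC, Notch3, Hey1, Hes1, Hes5 and Dll3 rest on 2 to 18 UMIs. A count of 3 UMIs amounts to 3.28 CPM in NPC, 8.95 in Astro, 9.48 in Peri and 13.7 in Oligo.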
